A study of Homo sapiens with 7 samples.

Results

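The USP genes code ubiquitin-specific proteases, the largest family of deubiquitinases. They were taken as every row of the deposited count table whose symbol begins with USP and a digit, leaving out USP18, and measured in A549 cells. A total of 54 of 14535 genes met this rule. Of these, 43 are single-copy USP genes, 7 are copies of the multicopy USP17L family, and 4 match the pattern but code no USP deubiquitinase (USP6NL and the pseudogenes USP32P1, USP32P2 and USP32P3). A549 is an epithelial cell line from a human lung adenocarcinoma. In 4 libraries (stretch, replicates 4 to 7) a day of cyclic stretch had been applied (24 h, 15 cycles per min, 15% elongation). In 3 libraries (doxorubicin, replicates 1 to 3) they had been given 100 nM doxorubicin, a topoisomerase II poison, for 24 h. In both groups the cells were stained after 6 days for β-galactosidase, a senescence marker, and RNA came from positive, sorted cells. No untreated cells were analysed here, so each difference is between the treatments. P-values here set the difference between groups against the spread of libraries within groups. The labels do not say whether replicates were separate cultures, so that spread may be technical variation only.

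Ubiquitin is a small protein that is joined to other proteins in chains, where it marks them for the proteasome or alters their activity and place. USP enzymes are cysteine proteases that cut it off again, each with its own substrates, among them the ubiquitin ligase MDM2, histones, membrane receptors and the free chains that leave the proteasome. USP17L genes have no introns in their coding part and lie in tandem repeats. USP17L2, also called DUB3, is known to stabilise the cell cycle phosphatase CDC25A.

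Libraries differed in depth and quality. Total counts were 5636494 to 7419798 in stretch and 2611766 to 4644650 in doxorubicin. Detection was set at 3 counts, which is 0.321 to 0.401 CPM (TMM-scaled CPM, a level per library size) in stretch libraries, and 1.19, 2.59 and 0.567 CPM in doxorubicin libraries 1, 2 and 3. All 3 doxorubicin libraries differed from stretch in such measures. The share of rows at 0 was 10.9% in doxorubicin library 1, 21.4% in library 2 and 5.1% in library 3, against 4.17% to 4.88% in stretch, and 1 gene, EIF4A2, took 16.1%, 30.6% and 10.8% of their counts, against 1.67% to 2.87% in stretch. The part of these differences in the results was not tested. The 5 epithelial markers looked up (EPCAM, KRT8, KRT18, KRT19, CDH1) reached 3 counts in every library, except EPCAM with 1 count in doxorubicin library 2. Their summed level was 950 to 1270 CPM in stretch and 1935 to 3477 CPM in doxorubicin, and they did not move as 1 group. KRT18 was lower in stretch, at a mean of 460 CPM against 2120 CPM in doxorubicin (log2 fold change -2.2, edgeR adjusted p 0.0199). EPCAM averaged 12.7 CPM in stretch and 3.26 CPM in doxorubicin (log2 fold change 1.79, edgeR adjusted p 0.0574). The other 3 had log2 fold changes of -0.44 to 0.21. INSL4, a gene A549 cells are known to express, was higher in stretch than in doxorubicin (log2 fold change 2.2, edgeR adjusted p 0.0336). Of the alveolar type II markers, SFTPC and SFTPB averaged 0.161 and 0.195 CPM in stretch and 0.132 and 0.378 CPM in doxorubicin, while LAMP3 had at least 3 counts in every library, at 2.22 CPM in stretch and 3.2 CPM in doxorubicin. CD68, a lysosomal glycoprotein of macrophages that other cells also make, averaged 18.6 ± 1.44 CPM in stretch and 75.6 ± 28.7 CPM in doxorubicin (SD, n = 4 and 3), and its part in the results was not tested. PTPRC, the other leukocyte marker looked up, had no row, and neither had the endothelial markers PECAM1 and VWF. The fibroblast markers COL1A1, DCN and PDGFRA summed to 6.59 to 9.14 CPM in stretch and 9.26 to 18.2 CPM in doxorubicin. In bulk RNA, fewer cells of a type and less RNA per cell cannot be told apart.

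The USP17L rows cannot be read as independent genes, as their sequences show. GENCODE release 29 (GRCh38) lists 30 copies, 24 of them on chromosome 4 between 9210657 and 9369070, with a median of 4746 bases from the start of one to the start of the next. The table holds 3 of these, USP17L9P, USP17L11 and USP17L16P, and USP17L9P and USP17L16P are annotated as unprocessed pseudogenes. USP17L9P differs from USP17L11 at 9 of 1593 bases and from USP17L16P at 10. Of the 1563 distinct 31-base windows in USP17L9P, 1528 (97.8%) also occur in a transcript of another gene, and for USP17L11 all 1649 do. The 35 windows that USP17L9P alone holds all lie in a single stretch, bases 907 to 971 of its transcript. That stretch is printed 5′ to 3′ beside the same bases of the other copies, from GENCODE release 29, because it is where a read could be assigned to USP17L9P alone. Capitals mark the 5 positions at which the 3 copies differ.
USP17L9P (chr4:9359289-9359353, plus strand): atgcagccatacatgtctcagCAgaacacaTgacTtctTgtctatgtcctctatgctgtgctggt
USP17L11 (chr4:9216311-9216375, plus strand): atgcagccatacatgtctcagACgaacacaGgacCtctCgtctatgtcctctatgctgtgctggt
USP17L16P (chr4:9240036-9240100, plus strand): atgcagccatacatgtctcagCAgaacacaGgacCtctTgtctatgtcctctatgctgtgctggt
Positions are counted from 1 at the 5′ end of the transcript, and each substitution gives the USP17L9P base, the position and the other copy's base. USP17L11 carries C928A, A929C, T937G, T941C and T945C here, and USP17L16P carries T937G and T941C. The positions of the AmpliSeq amplicons on these genes were not analysed here.

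The other 4 rows, USP17L1, USP17L2, USP17L3 and USP17L4, are among the 6 copies on chromosome 8 and are annotated as protein coding, as is USP17L11. They differ from the chromosome 4 copies at 49 to 61 of 1593 bases, and 78.9% to 98.4% of their 31-base windows also occur in transcripts of other genes. The remaining 23 copies were not analysed here.

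USP17L9P was the only USP gene past the threshold, and it was lower in stretch. It had 10, 4, 1 and 2 counts in stretch libraries 4 to 7, against 165, 19 and 31 counts in doxorubicin libraries 1 to 3. In CPM this was 1.34, 0.428, 0.108 and 0.215 in stretch, against 65.5, 16.4 and 5.86 in doxorubicin, with no overlap between groups and a more than 10-fold range within doxorubicin. The log2 fold change (stretch minus doxorubicin) was -5.83 (SE 0.91, a 57.0-fold difference), with an adjusted p of 0.0147 by edgeR (quasi-likelihood test, adjusted over 11230 genes by Benjamini-Hochberg, threshold 0.05). Of all genes tested, 2.32% passed that threshold, 1.97% lower and 0.356% higher in stretch. USP17L9P was the only USP17L row that passed the filter on low counts. It passed that filter through the doxorubicin libraries, in which it is high, so its passing already favoured a difference. Without any filter the adjusted p by edgeR was 0.0106. Without doxorubicin library 1 the log2 fold change was -4.32 with an adjusted p of 0.0849 by edgeR, and with library 3 as the only doxorubicin library it was -3.51 (adjusted p 0.0852 by edgeR). In every fit with that library alone the spread comes from the stretch libraries only, and the lone library is assumed to vary as they do. The call was also lost without stretch library 5, 6 or 7, at adjusted p of 0.0947, 0.0974 and 0.097 by edgeR.

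The other chromosome 4 copies showed how counts fell between rows. USP17L11 had exactly the same counts as USP17L9P in all 4 stretch libraries (10, 4, 1 and 2), and 0 counts in each of the 3 doxorubicin libraries. USP17L16P, a pseudogene, had the counts of USP17L9P in stretch libraries 5, 6 and 7 (4, 1 and 2) and in doxorubicin library 2 (19), and 0 counts in stretch library 4 and doxorubicin libraries 1 and 3. The part of the chromosome 4 counts standing in the USP17L9P row was thus 50% in stretch library 4 and 33.3% in each of stretch libraries 5 to 7, against 100%, 50% and 100% in doxorubicin libraries 1, 2 and 3. Rows with equal counts in a library cannot be treated as separate measurements. On chromosome 8, USP17L1 and USP17L3, whose transcripts differ at 8 of 1593 bases, had equal counts in all 7 libraries: 4, 2, 0 and 2 in stretch and 3, 2 and 4 in doxorubicin. In CPM the highest stretch library had 0.534 and the lowest doxorubicin library 0.756 for each, on counts of at most 4.

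A sum over rows does not depend on how counts were divided among those rows. It can still depend on how reads were divided with the 23 copies that the table lacks, which was not tested. USP17L11 shares 1585 of its 31-base windows with one of these, USP17L18, and USP17L9P shares 1485 with another, USP17L24. The 3 chromosome 4 rows, a sum chosen after seeing the data, held 20, 12, 3 and 6 counts in stretch libraries 4 to 7 and 165, 38 and 31 counts in doxorubicin libraries 1 to 3. In CPM these were 2.67, 1.28, 0.324 and 0.645 in stretch, against 65.5, 32.9 and 5.86 in doxorubicin, so that every doxorubicin library lay above every stretch library. The log2 fold change of this sum was -4.82 (SE 0.82, 28.2-fold, edgeR adjusted p 0.02), smaller than that of the USP17L9P row. The sum is not separate support for that row, as USP17L9P supplied 215 of its 234 counts in doxorubicin and 17 of 41 in stretch. Like that row, the sum passed the filter on low counts through the doxorubicin libraries. Without any filter its adjusted p was 0.0135 by edgeR. The chromosome 4 call was lost at adjusted p of 0.0582 to 0.113 by edgeR without any 1 stretch library, and with all 7 libraries at 0.0557 by limma-voom and at 0.125 by edgeR under library totals without TMM. The value was -3.86 without doxorubicin library 1 (edgeR adjusted p 0.108) and -2.26 with doxorubicin library 3 alone (edgeR adjusted p 0.2). The sum of all 7 rows, which also holds the USP17L9P counts, stood at 6.27, 2.89, 0.649 and 1.72 CPM in stretch. In doxorubicin it stood at 69.1, 37.2 and 10.6 CPM, and its log2 fold change was -3.76 (SE 0.74, edgeR adjusted p 0.0304). That sum was at -2.98 without doxorubicin library 1 (edgeR adjusted p 0.162) and -1.88 with doxorubicin library 3 alone (edgeR adjusted p 0.276). The call was also lost without each of the 4 stretch libraries, at adjusted p between 0.06 and 0.151 by edgeR, and held without doxorubicin library 2 or 3, at 0.034 and 0.000691.

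**Figure D1:**
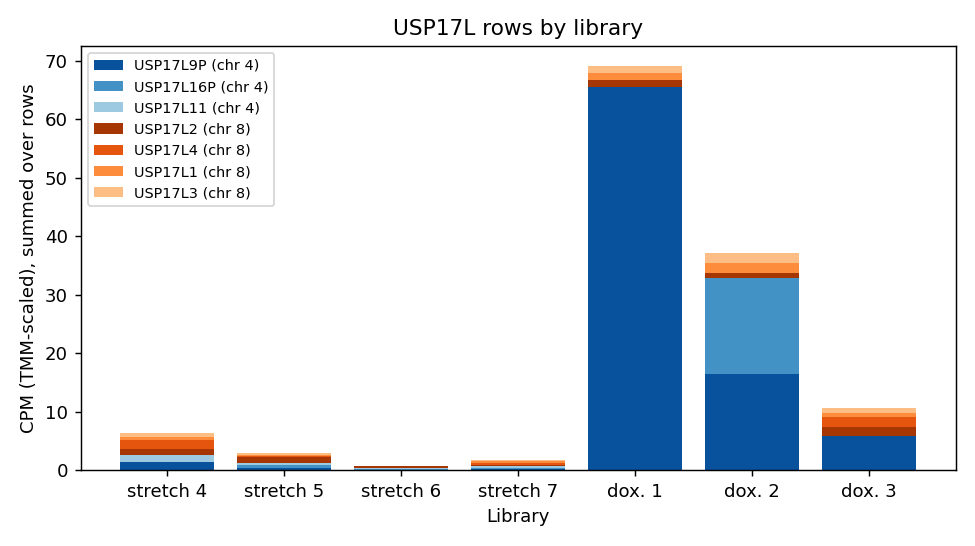
Level of the 7 USP17L rows in each library, stacked, in CPM scaled by TMM (vertical axis), with stretch libraries on the left and doxorubicin libraries on the right. Blue parts are chromosome 4 copies and orange parts chromosome 8 copies; the stacks reach 0.649 to 6.27 CPM in stretch and 10.6 to 69.1 CPM in doxorubicin, and USP17L9P fills the chromosome 4 part of doxorubicin libraries 1 and 3.

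The chromosome 8 copies, which include USP17L2 (DUB3), did not pass edgeR's test. Their 4 rows summed to 27, 15, 3 and 10 counts in stretch and 9, 5 and 25 counts in doxorubicin. In CPM the sums were 3.6, 1.6, 0.324 and 1.08 in stretch and 3.57, 4.32 and 4.73 in doxorubicin, with stretch library 4 just inside the doxorubicin range. The log2 fold change was -1.38 (SE 0.66, edgeR adjusted p 0.239). It passed in 1 of 17 alternatives, by voom with library quality weights (log2 fold change -1.74, limma adjusted p 0.0113). That setting called 46.3% of all genes. USP17L2 had 7, 9, 3 and 3 counts in stretch and 3, 1 and 8 in doxorubicin, and USP17L4 had 12, 2, 0 and 3 counts in stretch and 0, 0 and 9 in doxorubicin. These are near the detection level of 3 counts, and none of the 4 rows alone passed the filter on low counts with all 7 libraries. Chromosome 4 rows held 43.6 ± 5.16% of a library's USP17L counts in stretch (SD, n = 4) and 79.5 ± 21.1% in doxorubicin (SD, n = 3). Every doxorubicin library had the higher share, with library 3 at 55.4% nearest to stretch library 6 at 50%, which held 6 USP17L counts. This share was chosen after seeing the data and uses the same counts as the sums, so its direction is no separate support. The exact two-sided permutation test gave p = 0.0571, the smallest that 4 against 3 libraries allow. This test could thus not have reached 0.05 for any values.

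None of the single-copy USP genes passed the threshold by edgeR. Of 43 in the table, 40 were deep enough to be tested, with 18 toward stretch and 22 toward doxorubicin and a median log2 fold change of -0.17, beside a median of 0.02 over all 11230 genes. The lowest adjusted p by edgeR was 0.0741, for USP36. At an unadjusted p under 0.05 there were 9 of 40 (22.5%), where all genes gave 23.2%. The group ranges of 8 of 40 genes (20%) did not overlap, where all genes gave 21.4%. Stretch lay above in 3 of 40 (7.5%) and doxorubicin in 5 of 40 (12.5%), where all genes gave 11.5% and 9.88%. The single-copy genes were thus called and separated at rates near those of the whole table. Fold changes ran from -1.56 to 0.85 on the log2 scale, with SE of 0.28 to 0.65, and 3 genes (USP38, USP36 and USP35) differed more than 2-fold. On simulated counts of 11131 genes for the same comparison, the share of changed genes recovered was 0% at 2-fold, 56% at 4-fold, 88% at 8-fold and 100% at 16-fold. Differences of the size seen in most USP genes were thus within what edgeR's test missed in that simulation.

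**Figure D2:**
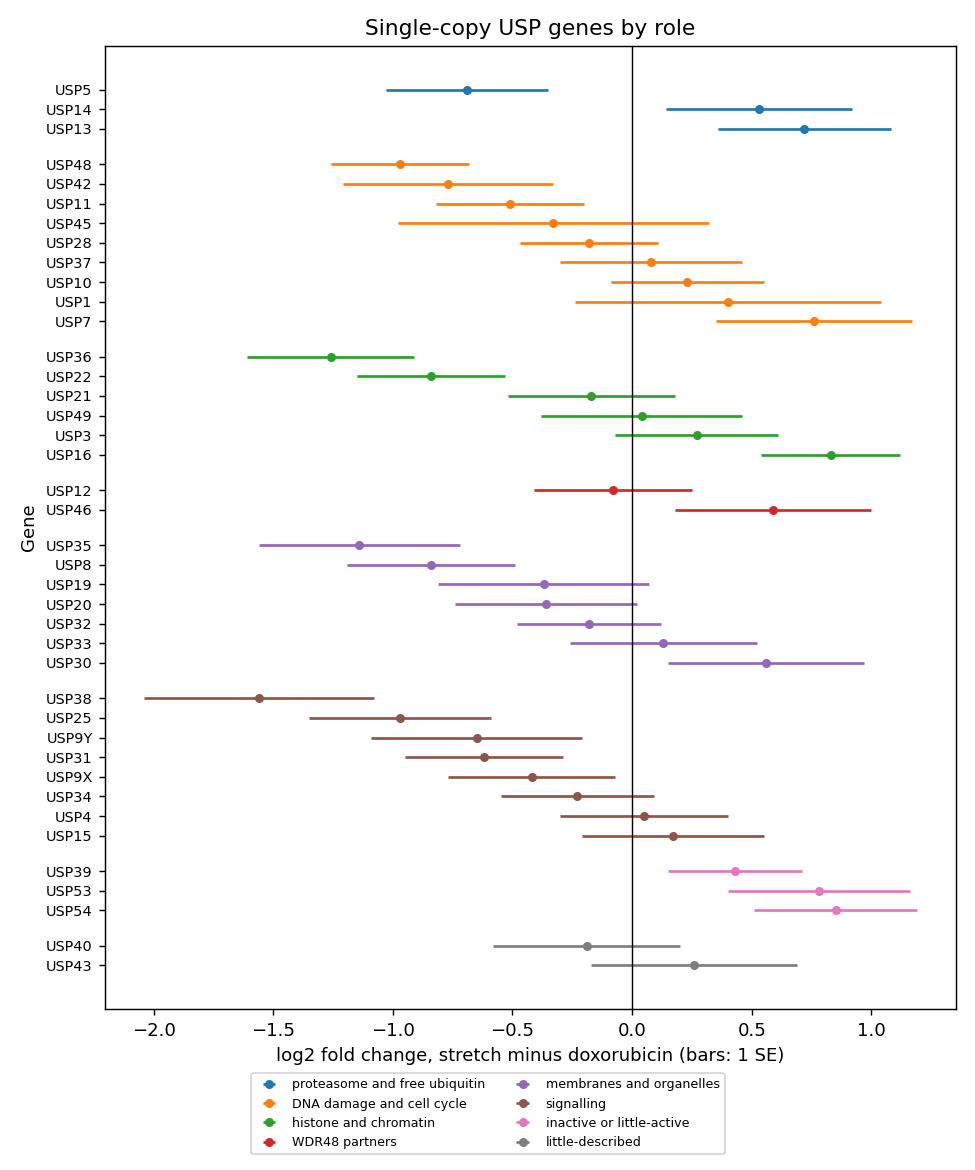
Log2 fold change, stretch minus doxorubicin (horizontal axis), of the 40 tested single-copy USP genes, coloured by role, with bars of 1 SE. Values lie between -1.56 (USP38) and 0.85 (USP54), and each role with more than 1 gene has members on both sides of 0, except 1. That is the group labelled inactive or little-active, a label not tested here, whose 3 genes (USP39, USP53 and USP54) lie at 0.43 to 0.85.

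The share of USP genes called lay near the share of all genes under 5 other combinations of test and libraries. DESeq2 called 4 of 43 USP genes (9.3%; USP16, USP36, USP38 and USP48) and 10% of all genes. Limma-voom called 0 of 40 USP genes and 1.66% of all genes. With doxorubicin library 3 alone, where only the stretch libraries supply the spread, edgeR called 0 of 43 single-copy genes and 0.802% of all genes. Without that library it called 13 of 42 (31%, 4 higher and 9 lower in stretch) and 32.2% of all genes. Voom with library quality weights called 18 of 40 (45%, 7 higher and 11 lower in stretch) and 46.3% of all genes. Its calls, by role, were 3 of 9 for DNA damage and the cell cycle, 3 of 6 for histones and 4 of 7 for membranes. For signalling there were 3 of 8, for the proteasome 2 of 3, for the group labelled inactive or little-active 3 of 3, and 0 elsewhere.

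**Figure D3:**
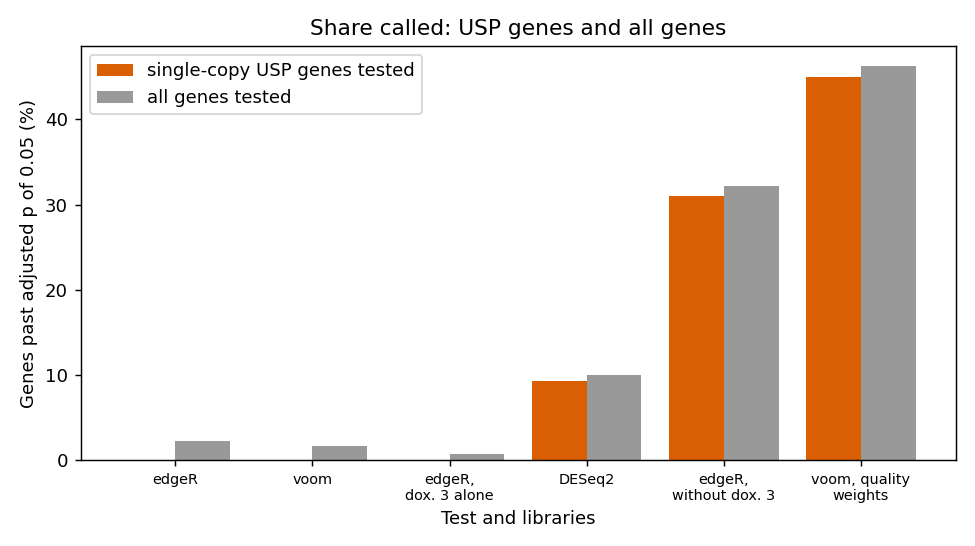
Percentage of genes past an adjusted p of 0.05 (vertical axis, from 0) under 6 combinations of test and libraries. Orange bars (single-copy USP genes) reach 45% and grey bars (all genes tested) 46.3% under voom with library quality weights, and the pair is of similar height in each combination with calls in both.

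Among the 6 tested enzymes of histones and chromatin, USP36, USP22 and USP16 had groups that did not overlap (50%, where all genes gave 21.4%). USP36 and USP22 were lower and USP16 higher in stretch, and edgeR called 0 of the 6. USP36, a nucleolar enzyme that stabilises MYC and acts in ribosome production (chromosome 17, 78787381 to 78841441), stood at 70.2, 47.5, 66.7 and 42.3 CPM in stretch and 135, 189 and 84.3 CPM in doxorubicin. Its log2 fold change was -1.26 (SE 0.35, edgeR adjusted p 0.0741), with doxorubicin library 2 highest and library 3 closest to stretch. USP22, the deubiquitinase of the SAGA co-activator that acts on histone H2B (chromosome 17, 20999593 to 21043760), stood at 211, 197, 245 and 208 CPM in stretch and 403, 503 and 255 CPM in doxorubicin. Here doxorubicin library 3 lay just above the highest stretch library, and the log2 fold change was -0.84 (SE 0.31, edgeR adjusted p 0.141). USP16, which removes ubiquitin from histone H2A (chromosome 21, 29024629 to 29054488), lay the other way, at 40.5, 44.5, 40.8 and 50.7 CPM in stretch and 30.2, 19 and 24.8 CPM in doxorubicin. Its log2 fold change was 0.83 (SE 0.29, edgeR adjusted p 0.128), and it was 0.85 with doxorubicin library 3 alone and 0.84 without it. USP3, USP21 and USP49, which also act on histones, had overlapping groups and log2 fold changes of 0.27, -0.17 and 0.04. The remaining members, USP44 of the mitotic checkpoint and USP51, another histone H2A enzyme, did not pass the filter on low counts with all 7 libraries. Their means were 1.05 and 1.06 CPM in stretch and 3.2 and 1.06 CPM in doxorubicin. USP44 was tested without doxorubicin library 3 and was among the 13 genes called there, on 8 and 7 counts in doxorubicin libraries 1 and 2.

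Enzymes of DNA damage and the cell cycle did not move together. Of 9 tested, 4 lay toward stretch and 5 toward doxorubicin. USP48, which acts on histone H2A and on the NF-kB subunit RELA (chromosome 1, 21678298 to 21783606), was the only member whose groups did not overlap. It stood at 12.4, 12.1, 11.7 and 16 CPM in stretch and 25.8, 27.7 and 23.4 CPM in doxorubicin, with narrow ranges in both groups, and a log2 fold change of -0.97 (SE 0.29, edgeR adjusted p 0.0883). With doxorubicin library 3 alone it was -0.83 and without that library -1. USP7, which removes ubiquitin from MDM2, stood at 62.5, 96.4, 110 and 99.1 CPM in stretch and 50.4, 24.2 and 86 CPM in doxorubicin, where library 3 fell within the stretch range. Its log2 fold change was 0.76 (SE 0.41, edgeR adjusted p 0.289), and 0.11 with doxorubicin library 3 alone. USP42 stood at 10.1, 14.2, 16.6 and 14.7 CPM in stretch and 24.2, 39.8 and 9.83 CPM in doxorubicin. Its log2 fold change of -0.77 (edgeR adjusted p 0.313) turned to 0.52 with doxorubicin library 3 alone. USP10, which binds the stress granule protein G3BP1, and USP28, which stabilises MYC, had log2 fold changes of 0.23 and -0.18. USP11, a partner of BRCA2, had one of -0.51, and USP37, which stabilises cyclin A, of 0.08. USP1, which with WDR48 deubiquitinates FANCD2 and PCNA, had 35, 39, 71 and 89 counts in stretch and 9, 0 and 47 counts in doxorubicin. USP45, which acts on the repair nuclease subunit ERCC1, had 58, 65, 67 and 50 counts in stretch and 14, 0 and 90 in doxorubicin. For both, doxorubicin library 2 was at 0 and library 3 within or above the stretch range in CPM, so that their log2 fold changes of 0.40 and -0.33 had SE of 0.64 and 0.65.

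**Figure D4:**
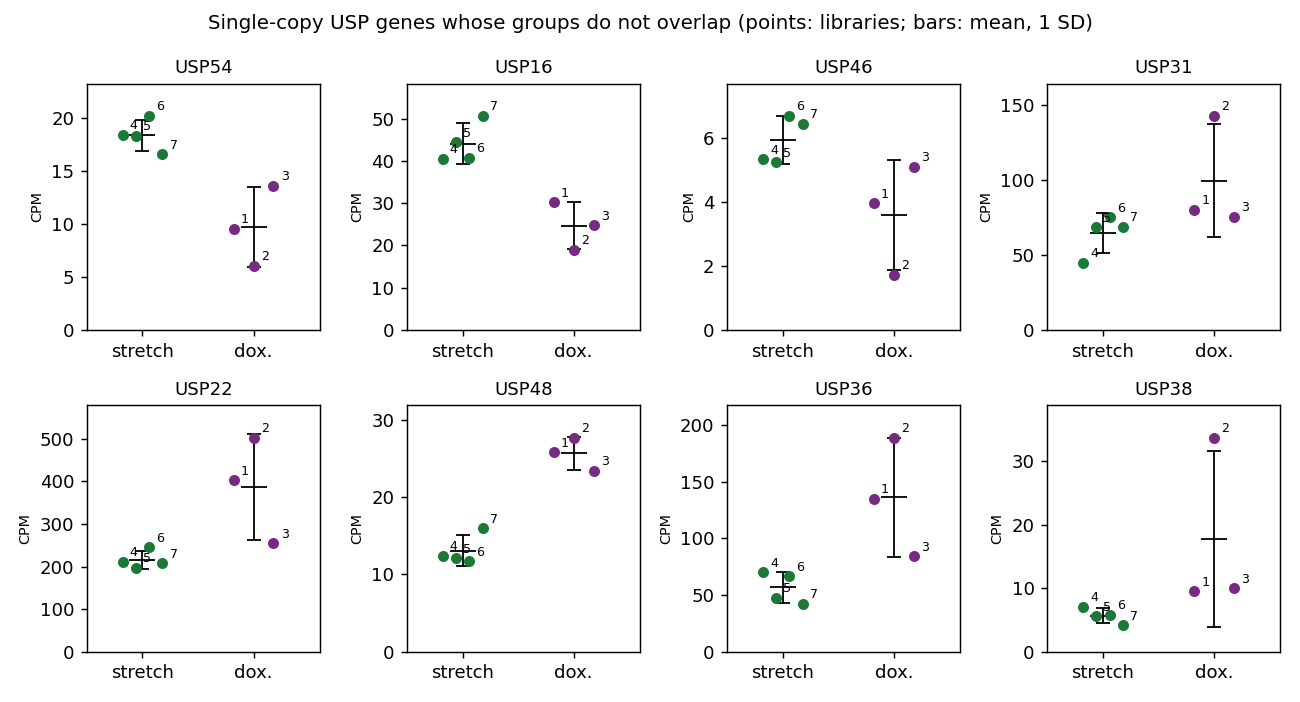
Level in CPM (vertical axes, from 0) of the 8 single-copy USP genes whose group ranges do not overlap, with stretch on the left and doxorubicin on the right of each panel. Numbers are replicates and bars the mean and 1 SD; USP54, USP16 and USP46 are higher in every stretch library, and doxorubicin library 2 is the highest in USP31, USP22, USP48, USP36 and USP38.

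In the signalling group 6 of 8 tested genes lay toward doxorubicin. USP38, which acts on the antiviral kinase TBK1 (chromosome 4, 143184917 to 143223830), had the largest difference of the single-copy genes. It stood at 7.08, 5.56, 5.84 and 4.2 CPM in stretch and 9.53, 33.7 and 10 CPM in doxorubicin, so doxorubicin library 2 was more than 3-fold above the others. Its log2 fold change was -1.56 (SE 0.48, a 2.95-fold difference, edgeR adjusted p 0.0941), and -0.81 with doxorubicin library 3 alone. USP25, which acts on TRAF signalling proteins, stood at 75.4, 69.1, 75.4 and 72 CPM in stretch and 127, 235 and 69.8 CPM in doxorubicin. Library 3 lay inside the narrow stretch range, and the log2 fold change of -0.97 (SE 0.38, edgeR adjusted p 0.160) was 0.08 with that library alone. USP31, linked to NF-kB signalling, stood at 45, 68.4, 75.4 and 69 CPM in stretch and 80.2, 143 and 75.6 CPM in doxorubicin, so the groups were separated only by the gap between 75.4 and 75.6 CPM, and its log2 fold change was -0.62 (edgeR adjusted p 0.280). USP9X, an X-linked enzyme with many substrates, stood at 166 ± 35.6 CPM in stretch and 223 ± 86.6 CPM in doxorubicin, and its Y-linked paralogue USP9Y at 5.45 ± 1 CPM in stretch and 7.95 ± 4.76 CPM in doxorubicin (SD, n = 4 and 3). Their log2 fold changes were -0.42 and -0.65 (edgeR adjusted p 0.484 and 0.391). USP9Y passed by voom with library quality weights (limma adjusted p 0.0241), a setting that called 46.3% of all genes. USP34, USP15 and USP4, which act in Wnt and TGF-beta signalling, had log2 fold changes of -0.23, 0.17 and 0.05. USP2, which stabilises cyclin D1, did not pass the filter on low counts with all 7 libraries. It had 8, 5, 7 and 0 counts in stretch and 0, 1 and 0 in doxorubicin.

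Enzymes of membranes and organelles lay toward doxorubicin in 5 of 7 cases, with 0 called by edgeR, DESeq2 or limma-voom. By edgeR 2 of 7 (28.6%) had an unadjusted p under 0.05, beside 23.2% of all genes. Voom with library quality weights called 4 of 7 (USP35, USP8, USP20 and USP19), beside 46.3% of all genes. USP35, which has been linked to mitochondria, stood at 11.7, 5.56, 5.51 and 4.95 CPM in stretch and 18.7, 18.2 and 9.83 CPM in doxorubicin. Stretch library 4 lay apart from the other stretch libraries and above doxorubicin library 3, and the log2 fold change was -1.14 (SE 0.42, edgeR adjusted p 0.144). USP8, which deubiquitinates endosomal receptors such as EGFR, stood at 22, 18.9, 26.2 and 29.3 CPM in stretch and 42.9, 64 and 25.1 CPM in doxorubicin. Its log2 fold change was -0.84 (SE 0.35, edgeR adjusted p 0.182) and -0.05 with doxorubicin library 3 alone, which lay inside the stretch range. USP30, which sits in the outer mitochondrial membrane and opposes mitophagy, had a log2 fold change of 0.56, at 5.59 ± 1.27 CPM in stretch and 3.56 ± 1.21 CPM in doxorubicin (SD, n = 4 and 3). USP19, anchored in the endoplasmic reticulum, and the related USP20 and USP33, partners of the VHL ubiquitin ligase, had values of -0.37, -0.36 and 0.13. USP32, a membrane-bound enzyme, stood at 134 ± 25.4 CPM in stretch and 152 ± 39.7 CPM in doxorubicin (log2 fold change -0.18), and 25.2% of its 31-base windows also occur in transcripts of other genes. Its pseudogene rows share more, 65.7% to 85.8%, so their counts are uncertain. USP32P1 stood at 87.6, 71.9, 74.4 and 55.8 CPM in stretch and 51.6, 25.9 and 161 CPM in doxorubicin. USP32P3 stood at 14.3, 15.5, 14.2 and 12.3 CPM in stretch and 17.1, 0 and 47.1 CPM in doxorubicin. USP32P1, USP32P2 and USP32P3 were thus each highest in doxorubicin library 3, with log2 fold changes of -0.16, -0.76 and -0.69 over all libraries and -1.14, -1.34 and -1.73 with that library alone. Without that library the log2 fold change of USP32P3 was 0.53.

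The enzymes that serve the proteasome and free ubiquitin chains overlapped between groups. USP14, which is bound to the proteasome and trims chains from its substrates, stood at 56.9, 51.5, 47.5 and 57.2 CPM in stretch and 23.8, 20.8 and 63.3 CPM in doxorubicin. Doxorubicin libraries 1 and 2 were below and library 3 above all stretch libraries, so the log2 fold change of 0.53 (SE 0.39, edgeR adjusted p 0.427) was -0.23 with library 3 alone and 1.28 without it. USP5, which takes free chains apart, had a log2 fold change of -0.69 (edgeR adjusted p 0.250), at 60.9 ± 12.9 CPM in stretch and 99.1 ± 43.8 CPM in doxorubicin (SD, n = 4 and 3). Its relative USP13 had a log2 fold change of 0.72 (edgeR adjusted p 0.257), at 22.4 ± 2.97 CPM in stretch and 13.9 ± 5.84 CPM in doxorubicin.

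USP12 and USP46, closely related enzymes that WDR48 activates, had log2 fold changes of -0.08 and 0.59. USP46 stood at 5.34, 5.24, 6.7 and 6.45 CPM in stretch and 3.97, 1.73 and 5.1 CPM in doxorubicin, where library 2 held 2 counts. The groups did not overlap, but doxorubicin library 3 was near the lowest stretch library, and the gene did not pass (edgeR adjusted p 0.402). USP54, USP53 and USP39 were on the stretch side in 3 of 3 cases. They were grouped here under the label inactive or little-active. Activity was not measured, so these data do not show that the label holds for each of them. USP54 stood at 18.4, 18.3, 20.2 and 16.6 CPM in stretch and 9.53, 6.05 and 13.6 CPM in doxorubicin (log2 fold change 0.85, SE 0.34, edgeR adjusted p 0.168). USP53, known from tight junctions, had a log2 fold change of 0.78 (edgeR adjusted p 0.245), and stood at 66.9 CPM in doxorubicin library 3 against 29 and 30.3 CPM in libraries 1 and 2. USP39, a spliceosome component that lacks protease activity, had one of 0.43 (edgeR adjusted p 0.375). Of the little-described USP40 and USP43, the log2 fold changes were -0.19 and 0.26. USP6NL, which activates the GTPase of RAB5 and is no protease, stood at 14.2, 16.9, 22.5 and 15.1 CPM in stretch and 25, 47.6 and 20 CPM in doxorubicin, with stretch library 6 above doxorubicin library 3 (log2 fold change -0.81, edgeR adjusted p 0.210).

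Doxorubicin library 2 was the highest library for 15 and the lowest for 17 of the 40 tested single-copy genes, and so held 32 of their 80 extremes, where each other library held 5 to 10. It was an extreme for 80% of these genes and for 68.9% of all genes tested. Of the 40 genes, 3 (USP1, USP45 and USP46) had under 3 counts in that library, and none did in any other library. Doxorubicin library 3 was an extreme for 25% of the 40 genes and 30% of all genes, and for several enzymes it stood inside or next to the stretch range. Of the 9 single-copy genes with an unadjusted p under 0.05, the log2 fold changes with doxorubicin library 3 alone were -0.81 for USP38, -0.56 for USP36, -0.49 for USP35, -0.83 for USP48, 0.08 for USP25, -0.23 for USP22, -0.05 for USP8, 0.85 for USP16 and 0.45 for USP54. Set beside the values without that library, USP48 and USP16 moved least of the 9.

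**Figure D5:**
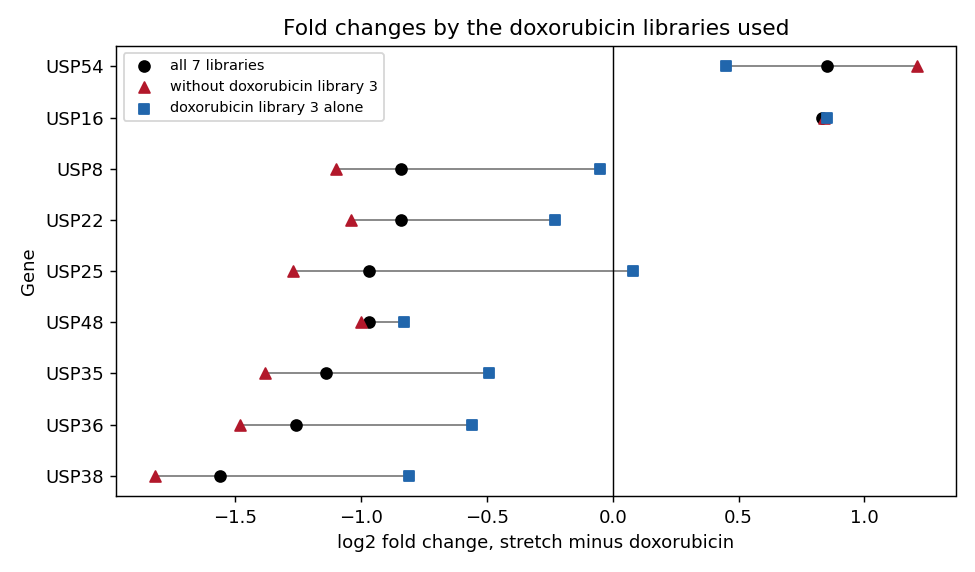
Log2 fold change, stretch minus doxorubicin (horizontal axis), of the 9 single-copy USP genes with an unadjusted p under 0.05, with all 7 libraries (black circles), without doxorubicin library 3 (red triangles) and with that library as the only doxorubicin library (blue squares). USP16 and USP48 hold their place, whereas USP25 lies at -1.27 without library 3 and at 0.08 with it alone.

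Over whole transcripts, few single-copy members shared much sequence with other genes. The stretch of each gene that the kit amplifies was not located, so these shares do not show whether the measured bases are unique. The median share of 31-base windows also found in transcripts of other genes was 0.986% over the 43, and 5 genes exceeded 10%: USP8, USP10, USP12, USP31 and USP32. USP31 shared 22.9% of its windows, most of them with the annotated transcript AC127459.1, so the counts of USP31 are uncertain. USP9X and USP9Y shared 3.3% and 3.43%.

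Of 32 tested deubiquitinases of other families, 0 passed by edgeR (6, or 18.8%, at an unadjusted p under 0.05, beside 23.2% of all genes). On the log2 scale 15 lay toward stretch and 17 toward doxorubicin, with a median of -0.04. DESeq2 called 2 of 34 (OTUB1 and OTUD1), limma-voom 0 of 32, and voom with library quality weights 12 of 32. The shares of all genes were 10%, 1.66% and 46.3%. OTUB1, which also blocks ubiquitin-conjugating enzymes, stood at 129, 144, 124 and 127 CPM in stretch and 60.8, 55.3 and 75.8 CPM in doxorubicin (log2 fold change 1.03, SE 0.28, edgeR adjusted p 0.0707). OTUD1 stood at 11.1 ± 0.732 CPM in stretch and 25.8 ± 10.5 CPM in doxorubicin (SD, n = 4 and 3; log2 fold change -1.19, edgeR adjusted p 0.0805). OTUD4 and OTUD7A had log2 fold changes of -1.45 and 1.74 with SE of 0.55 and 0.71. Among 23 tested partners and substrates of USP enzymes 0 passed by edgeR (3, or 13%, at an unadjusted p under 0.05, beside 23.2% of all genes), and 15 lay toward stretch. DESeq2 called 1 of 24 (CCND1), beside 10% of all genes, and limma-voom 0 of 23, beside 1.66%. Voom with library quality weights called 7 of 23, beside 46.3% of all genes, among them CCND1, PSMD1, MDM4 and ATXN7L3. CCND1, the cyclin D1 gene, stood at 66 ± 10.6 CPM in stretch and 127 ± 26.8 CPM in doxorubicin (log2 fold change -0.94, edgeR adjusted p 0.0943), with no overlap. PSMD1, a proteasome subunit, MDM4, a relative of MDM2, and ATXN7L3, which activates USP22 in SAGA, had log2 fold changes of 1.34, 0.81 and -0.75. WDR48, the activator of USP1, USP12 and USP46, had one of 0.07, and MDM2 one of -0.12.

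Of 5 tested ubiquitin genes and activating enzymes, UBA7 alone passed by edgeR, beside 2.32% of all genes. UBA7, the activating enzyme for the ubiquitin-like modifier ISG15, stood at 4.67, 0.856, 2.92 and 1.83 CPM in stretch and 32.6, 23.3 and 21.4 CPM in doxorubicin, with a log2 fold change of -3.33 (SE 0.50, edgeR adjusted p 0.0147). The call was lost without doxorubicin library 1 or stretch library 5, 6 or 7, at edgeR adjusted p of 0.0811, 0.0536, 0.0974 and 0.094. UBA1, the main activating enzyme of ubiquitin, had a log2 fold change of 0.19, and UBA6, another such enzyme, had one of 0.26. The ubiquitin genes UBB and RPS27A had log2 fold changes of 0.50 and 0.09. These 4 genes were called by none of edgeR, DESeq2 and limma-voom, with or without quality weights.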

How the data were processed

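Gene expression was measured in 7 A549 libraries made with an Ion AmpliSeq transcriptome kit, per the labels' protocols, which amplifies a stretch of each gene by PCR without molecular identifiers. The authors deposited 1 table of estimated counts per gene as whole numbers, 14647 rows, not normalised between libraries. Fastp 0.20.1, Salmon 1.9 and GRCh38 are named in the submitters' processing notes, with no role or order. The annotation is not given in the sources used here. Counts were taken to be rounded. Salmon divides reads that match several transcripts between them by estimation. Each row has a count in at least 3 libraries. Rows of 64 repeated symbols were summed, and Metazoa_SRP, a family name with at most 0.00861% of a library, was left out, leaving 14535 genes.

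Genes were filtered with filterByExpr, scaled by TMM, and tested with edgeR 4.0.16 (glmQLFit, robust, and glmQLFTest; R 4.3.3), as stretch minus doxorubicin. P-values were adjusted by Benjamini-Hochberg across all 11230 genes (threshold 0.05). SE was derived from the log2 fold change and its F statistic. CPM uses TMM-scaled library sizes, with no correction for length, so levels of different genes are not compared. The test was tried on simulated counts with 200 changed genes, which made 7 false calls among 129. Limma 3.58.1 and DESeq2 1.42.0 were alternatives. No pair of libraries agreed within sampling noise (chi-square per degree of freedom at least 7.07). Intervals of counting error are not given, since PCR copies are not independent molecules.

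Coordinates and transcripts are from GENCODE release 29. Symbols of 8 further USP genes (of 51 listed by role) were not analysed here. Members, lists and roles were chosen with earlier results of these data known. Named were members past the threshold, every USP17L copy, up to 4 of each role and list with the lowest p, the 5 highest by mean CPM and the 5 with the smallest fold change, and others whose role a paragraph describes. Some genes of the lists are not reported here.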

Additional observations from a re-analysis of the deposited data

Results flagged for a closer look

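A stretch library stood far from the other 3 for 5 of 55 named genes, by the gap to its nearest neighbour as a share of the group's range (Dixon's critical value for 4 samples is 0.829). Chance flags about 1 in 20 groups. The share was 0.91 for USP35, 0.881 for USP43 and 0.862 for USP32P2, where stretch library 4 was highest, at 11.7, 5.87 and 6.81 CPM. It was 0.865 for USP9Y, where stretch library 5 was lowest at 3.96 CPM, and 0.83 for USP48, where stretch library 7 was highest at 16 CPM.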

How the results depend on the processing

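No paired analysis was possible because the groups share no replicate number. A total of 18 alternatives were tried, and the cause of each change was not tested. Library totals without TMM left 13 genes called, moved the median of all genes to 0.71 (0.02 with TMM) and the USP median to 0.6, left 0 USP17L copies called, and gave the USP17L sum -2.82 (edgeR adjusted p 0.15), USP17L9P -4.94 (0.125) and UBA7 -2.56 (0.133). The USP median minus that of all genes was -0.21 to -0.04 over the alternatives. The USP median itself was -0.07 without a filter on low counts, -0.08 by limma-voom and -0.06 with doxorubicin library 3 alone. A mean of at least 10 CPM left 143 genes called, DESeq2 called 1315 with 4 USP genes, and voom with library quality weights 5194 with 18. Doxorubicin library 3 alone gave 99 called genes, 0 USP17L copies and a USP17L sum of -1.88. With 1 library left out, called genes numbered 12 to 3736, called USP genes 0 to 13, the USP median was -0.15 to -0.04, USP17L copies called were 0 to 1, and the USP17L sum was -4.45 to -2.98. Of these, called genes numbered 23 without doxorubicin library 1, 289 without library 2 and 3736 without library 3, and 40, 16, 12 and 12 without stretch libraries 4 to 7. The 13 called USP genes came without doxorubicin library 3.

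Of 910 alternative values for single genes and sums, 787 kept direction and side of the threshold, 19 lost and 56 gained the threshold, and 48 changed sign, in 25 genes, none past the threshold. Under library totals, 15 changed sign, to 0.02 (USP25), 0.03 (USP22), 0.07 (USP8), 0.08 (USP6NL), 0.2 (ATXN7L3 and USP42), 0.21 (USP5), 0.25 (USP31), 0.26 (USP32P1), 0.31 (USP11), 0.37 (USP20), 0.39 (USP40), 0.48 (USP9X) and 0.66 (USP12 and USP32), all below that setting's median of 0.71. With doxorubicin library 3 alone the values were -0.09 (USP33), -0.18 (UBA1), -0.23 (USP14), -0.48 (USP37), -0.49 (UBA6), -0.57 (USP49), 0.02 (ATXN7L3), 0.08 (USP25), 0.22 (USP32), 0.24 (USP12), 0.32 (USP9X), 0.44 (OTUD4) and 0.52 (USP42). Limma-voom gave 0.14 for USP32P1 and USP32P3, and with quality weights -0.22 (USP33), -0.25 (USP43), -0.35 (USP4) and 0.36 (USP32P1). USP12 was at 0.01 without a filter. With 1 library left out, sign changes fell within ranges of -0.26 to 0.2 (USP12), -0.07 to 0.38 (USP4), -0.19 to 0.57 (USP37), -0.21 to 0.43 (USP33), -0.3 to 0.59 (USP49), -0.32 to 0.05 (USP32), -0.09 to 1.07 (UBA6), -0.49 to 0.21 (USP40), -1.2 to 0.53 (USP32P3) and -0.56 to 0.9 (USP32P1).

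Counts under 3 in doxorubicin library 2 limit USP1, USP45 and USP46. With all 7 libraries and edgeR's filter, low counts left 6 of 7 USP17L rows and 3 single-copy genes untested. Correlations of log2 CPM across genes, which are not independent replicates, were 0.939 to 0.978 within stretch and 0.754 to 0.884 within doxorubicin. Between groups they were 0.724 to 0.941. Doxorubicin library 3 correlated with stretch libraries 4 to 7 at 0.941, 0.915, 0.92 and 0.915. With doxorubicin libraries 1 and 2 it correlated at 0.882 and 0.754, so it lay nearer to the stretch libraries than to its own group.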
